A study of Mus musculus with 4 samples.

Results

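The transcripts of 10 chemokines, Ccl2, Ccl5, Ccl7, Ccl8, Ccl9, Cxcl1, Cxcl5, Cxcl10, Cxcl12 and Cx3cl1, were followed in Fxr1-depleted myoblasts. They were 10 of the 36413 gene names in the array's annotation and were read by 11 of its 55681 probes that were not controls, namely every probe that carried one of these names. Of these 10 genes, 9 had 1 probe and Cxcl12 had 2. C2C12 is an established mouse myoblast line, so each group is a model of a single cell line in culture and not of muscle. In the siFxr1 group the cells were transfected with a small interfering RNA directed at exon 14 of Fxr1, and in the siControl group with a control small interfering RNA of random sequence. Both groups were thus transfected cells, and both were analysed 48 h after transfection. Each group had 2 samples, 1 from each of 2 experiments. The siFxr1 and siControl RNA of an experiment were hybridised on the same slide, each as a Cy3-labelled sample on its own one-colour Agilent mouse array, which gave 4 arrays. Labels give an RNA integrity number of 9 for 3 of the samples and of 8 for the siFxr1 sample of experiment 1.

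Chemokines are small secreted proteins that guide migrating cells along a gradient, and they are classed as CC, CXC or CX3C by the spacing of their N-terminal cysteines. They act through seven-helix receptors coupled to G proteins, and many are held on heparan sulfate at cell surfaces. In injured muscle, chemokines from myogenic cells and resident cells draw in neutrophils, monocytes and macrophages, and several of them are induced through NF-kB and interferon signalling.

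Sequence upstream of the start was read for 6 of the 10 genes from the RefSeq promoter table of mouse build GRCm38.p6. Ccl2, Ccl5, Ccl7 and Cxcl5 had no entry there. In the 250 bases before each start, both strands were searched for the kappa-B consensus, which NF-kB binds, and for the core of the interferon-stimulated response element, GAAANNGAAA. The windows of 4 genes are shown, as these genes differed from one another in their patterns over the experiments, described below. Capitals in the windows mark the matches. All are written 5′ to 3′ in the direction of transcription. Cxcl10 lies on the minus strand at chr5:92348890-92349139, Cxcl1 on the plus strand at chr5:90890995-90891244, Ccl9 on the minus strand at chr11:83578637-83578886 and Cx3cl1 on the plus strand at chr8:94771930-94772179.
Cxcl10: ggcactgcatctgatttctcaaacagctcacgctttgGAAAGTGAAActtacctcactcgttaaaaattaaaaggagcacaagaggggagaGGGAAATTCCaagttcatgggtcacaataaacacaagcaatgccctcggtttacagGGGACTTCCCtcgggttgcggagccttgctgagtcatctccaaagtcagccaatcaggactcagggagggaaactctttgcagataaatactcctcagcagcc
Cxcl1: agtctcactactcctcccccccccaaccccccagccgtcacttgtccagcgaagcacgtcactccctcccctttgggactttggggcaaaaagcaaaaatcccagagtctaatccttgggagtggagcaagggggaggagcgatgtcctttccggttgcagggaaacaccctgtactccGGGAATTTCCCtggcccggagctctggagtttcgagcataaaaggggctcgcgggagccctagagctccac
Ccl9: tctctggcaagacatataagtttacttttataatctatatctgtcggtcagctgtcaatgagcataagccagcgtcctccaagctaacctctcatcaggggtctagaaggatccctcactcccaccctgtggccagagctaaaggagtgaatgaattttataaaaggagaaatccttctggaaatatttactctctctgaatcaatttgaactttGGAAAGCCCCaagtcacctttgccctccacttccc
Cx3cl1: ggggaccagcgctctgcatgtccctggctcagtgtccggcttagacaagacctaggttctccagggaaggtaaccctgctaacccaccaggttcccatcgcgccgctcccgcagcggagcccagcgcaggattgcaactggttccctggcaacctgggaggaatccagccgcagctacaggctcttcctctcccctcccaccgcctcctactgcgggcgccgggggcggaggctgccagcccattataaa

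The Cxcl10 window held 1 match to the response element core, 213 to 204 bases before the start, and 2 matches to the kappa-B consensus, at 159 to 150 and at 103 to 94 bases. The Cxcl1 window held 2 kappa-B matches on opposite strands that overlapped, at 71 to 62 and at 70 to 61 bases, so that its capitals form a single run. The Ccl9 window held 1 kappa-B match on the strand opposite to the one printed, 35 to 26 bases before the start. No match to either motif was found in the windows of Cx3cl1, Ccl8 and Cxcl12. Of the 32851 promoters in the table, 3.9% held a kappa-B match and 2.98% a match to the response element core in the same window. A match is a string of letters in this window and was not tested as a binding site.

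Several of the genes are neighbours. In the same annotation Ccl2 and Ccl7 are adjacent protein-coding genes on chromosome 11, and so are Ccl5 and Ccl9. Ccl8 lies between Ccl12 and Ccl1 on that chromosome. Cxcl1 lies between Cxcl15 and Cxcl2 on chromosome 5, and Cx3cl1 between Ccl22 and Ccl17 on chromosome 8.

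All 11 probes were well above background on all 4 arrays by the mark of the scanner software, and none was saturated. Values are normalized log2 signals, which are log2 intensities brought to a common distribution on the 4 arrays, so that a difference of 1 is a 2-fold difference. Signals of different probes depend on how well each probe hybridises, and the chemokines were therefore not ranked by level. The brighter of 2 Fxr1 probes (A_51_P372463) read 10.15 and 10.77 in siFxr1 of experiments 1 and 2 and 13.84 and 13.71 in siControl. This log2 difference of -3.31 (SE 0.29) is the check of the knockdown, and a second Fxr1 probe differed by -3.61. Of 8 myoblast marker genes, 7, among them Myod1, Des and Pax7, were well above background on all 4 arrays, and Myf5 was so on 0. Of 9 leukocyte and macrophage markers, 4 (Cd14, Itgam, Csf1r and Cd3e) were well above background on all 4 arrays. Cd68 was so on 2 arrays, Lyz2 and Aif1 on 1 each, and Ptprc and Emr1 on 0. The summed linear signal of the 9 was 9828 and 18852 in siFxr1 of experiments 1 and 2 and 7545 and 19492 in siControl. The sum was higher in experiment 2 in both conditions, and so were Cd14 and Itgam, the marker with the largest share of it, whereas Csf1r and Cd3e were lower in experiment 2 in both. The part of these markers in the results below was not tested. Endothelial markers were well above background on all 4 arrays for 2 of 5 genes. Between 45.4% and 52.9% of the probes of an array were well above background.

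The array of siFxr1 in experiment 2 stood apart for 2 of the chemokines followed here, Ccl5 and Cxcl10. It also stood apart for further ligands, Ccl4 and Ccl3, given below. Results of the followed chemokines that rest on this array are given with and without it. Without it, siFxr1 of experiment 1 was set against the mean of both siControl arrays, so a difference between experiments enters the value. Within experiment 1, 5 of the 11 probes were higher in siFxr1 than in siControl (Ccl7, Ccl9, both of Cxcl12, and Cx3cl1). Within experiment 2 all 11 were. Among the 27823 probes whose mean signal was at or above the median of the array, a set that holds all 11 and is called the bright probes here, 53.3% were higher in siFxr1 in experiment 1 and 48.01% in experiment 2. The median log2 difference of the 11 probes was -0.16 in experiment 1 and 0.98 in experiment 2, beside 0.04 and -0.02 over the bright probes. On average over both experiments the median was 0.70 for the 11 and 0.01 for the bright probes. RNA was taken from whole cultures, in which more cells with a transcript and more of it per cell cannot be told apart.

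**Figure D1:**
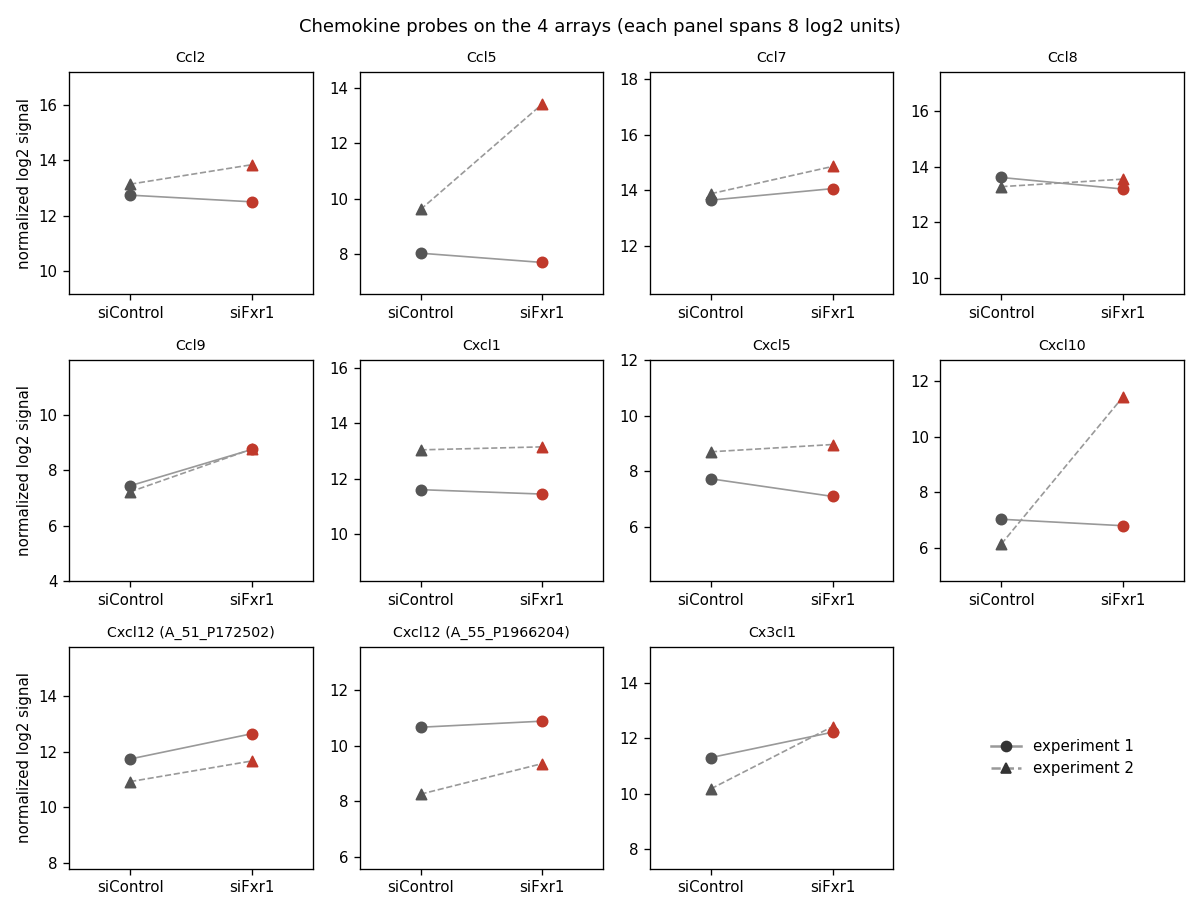
Normalized log2 signal (y axis, each panel spanning 8 units) of the 11 chemokine probes in siControl (grey) and siFxr1 (red) arrays (x axis), with a line joining the arrays of an experiment (circles and solid line, experiment 1; triangles and dashed line, experiment 2). Ccl9 and Cx3cl1 slope upward in both experiments, whereas Ccl5 and Cxcl10 slope steeply upward in experiment 2 only, to 13.41 and 11.44.

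Expression in siFxr1 and siControl was compared over all probes with limma's moderated test, with p-values adjusted by the Benjamini-Hochberg method over all 55681 probes and a B value (the log odds of a change) above 0 as the rule for a call. No chemokine probe was called. Among all probes 0 were called (0%), also with the experiment as a block (0%), with the highest B at -4.33 and -2.29. At an unadjusted p under 0.05 there were 2764 probes without the block, 2 of them chemokine probes (Ccl9 and Cx3cl1). With the block there were 4927, 3 of them chemokine probes (Ccl9, Cx3cl1 and the brighter Cxcl12 probe). An exact permutation test of 2 arrays against 2 cannot give a two-sided p under 0.333. Labels name the samples as separate experiments, and the tests measure the spread between these 2 per group. The differences that follow are therefore given as values within each experiment, with limma's adjusted p beside the average.

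In 3 of the 11 chemokine probes (Ccl7, Ccl9 and Cx3cl1), both siFxr1 arrays lay above both siControl arrays, and in 0 both lay below. Over the bright probes these shares were 15.2% and 14.1%. A single chemokine, Ccl9, was at least 2-fold higher in siFxr1 in both experiments, as were 1.75% of the bright probes, and 0 chemokine probes were at least 2-fold lower in both, as were 1.59%. At least a 2-fold higher signal within experiment 1 was seen for 1 chemokine probe (Ccl9; 4.25% of bright probes) and within experiment 2 for 5 (Ccl5, Ccl9, Cxcl10, the dimmer Cxcl12 probe and Cx3cl1; 6.56%). For 2 of them, Ccl5 and Cxcl10, the 2-fold higher signal of experiment 2 went with a lower one in experiment 1, a pattern of 1.23% of the bright probes. Without siFxr1 of experiment 2, the remaining siFxr1 array lay above both siControl arrays for 5 probes (Ccl7, Ccl9, both of Cxcl12, and Cx3cl1) and below both for 5 (Ccl2, Ccl5, Ccl8, Cxcl1 and Cxcl5). Cxcl10 lay between them. Over the bright probes these shares were 35.8% above and 30.1% below.

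**Figure D2:**
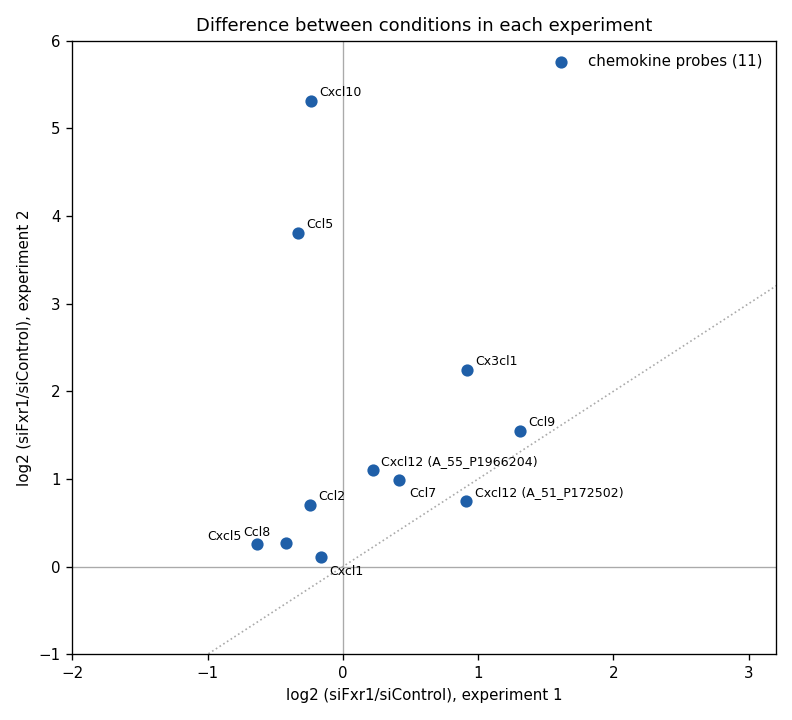
The log2 difference between siFxr1 and siControl in experiment 1 (x axis) and in experiment 2 (y axis) for the 11 chemokine probes, with the dotted line marking equal differences. All points lie above 0 on the y axis, 5 lie right of 0 on the x axis, and Cxcl10 and Ccl5 stand at 5.31 and 3.803 in experiment 2 against -0.23 and -0.33 in experiment 1.

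The monocyte chemoattractants Ccl2, Ccl7 and Ccl8 did not move as a group. Ccl2, the main ligand of CCR2, was read by 10 spots of probe A_51_P286737 (NM_011333, mm9 chr11:81850650-81850709). Experiment 1 gave a signal of 12.50 with siFxr1 and 12.74 with siControl, and experiment 2 gave 13.84 with siFxr1 and 13.14 with siControl. The siControl values lay between the siFxr1 values, and the log2 difference of siFxr1 from siControl was -0.24 in experiment 1 and 0.70, or 1.63-fold, in experiment 2. Spots of an array differed little, with SDs between 0.039 and 0.082, and the 10 spots of siFxr1 ran from 12.37 to 12.61 in experiment 1 and from 13.75 to 13.93 in experiment 2. The siFxr1 mean was 13.17 ± 0.95 (SD, n = 2) and the siControl mean 12.94 ± 0.28 (SD, n = 2), a log2 difference of 0.23 (SE 0.57, limma adjusted p = 0.982). Without siFxr1 of experiment 2 this difference was -0.44 against the mean of both siControl arrays.

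Ccl7, the neighbour of Ccl2 and a further ligand of CCR2, was read by probe A_51_P436652 (NM_013654, mm9 chr11:81860656-81860715). With siFxr1 it stood at 14.05 in experiment 1 and 14.86 in experiment 2, and with siControl at 13.64 and 13.87. Both siFxr1 arrays were thus above both siControl arrays, by 1.33-fold in experiment 1 and 1.98-fold in experiment 2. The average log2 difference was 0.70 (SE 0.36, limma adjusted p = 0.975), and it was 0.30 without siFxr1 of experiment 2. Ccl8, which lies on the same chromosome and acts on monocytes and on T cells that carry CCR8, was read by probe A_51_P464703 (NM_021443, mm9 chr11:81930108-81930167). Its 4 signals overlapped between the conditions, with 13.20 and 13.55 for siFxr1 in experiments 1 and 2 and 13.61 and 13.28 for siControl. The log2 difference of Ccl8 was -0.42 in experiment 1 and 0.27 in experiment 2, and -0.07 on average (SE 0.24, limma adjusted p = 0.991).

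Ccl9 and Ccl5, which are neighbours on chromosome 11, differed in how far the experiments lay apart. Ccl9, a ligand of CCR1, was read by probe A_51_P185660 (NM_011338, mm9 chr11:83388223-83388282). It read 8.75 with siFxr1 against 7.44 with siControl in experiment 1, and 8.76 against 7.22 in experiment 2. The siFxr1 arrays were 2.48-fold above siControl in experiment 1 and 2.91-fold in experiment 2, and arrays of a condition lay within 0.22 of each other. The siFxr1 mean was 8.754 ± 0.0096 (SD, n = 2) and the siControl mean 7.33 ± 0.15 (SD, n = 2). Their log2 difference of 1.43 (SE 0.17) was 2.69-fold, with an unadjusted p of 0.0026 and an adjusted p of 0.950 from limma, and an adjusted p of 0.535 with the experiment as a block. Taking the 4 ratios of a siFxr1 over a siControl array as observations called Ccl9 alone among the 11 probes. Its B was 2.98 and its limma adjusted p 0.028, and this fit called 1.03% of all probes higher. Among other ligands it also called probes of Ccl25 (A_51_P161265, B 0.41) and Cxcl9 (A_51_P461665, B 0.16) higher and of Ccl27a (A_55_P2070576, B 0.95) lower. The Cxcl9 probe was well above background on 1 array and the Ccl27a probe on 0. This fit counts every array more than once, so its observations were not independent. Other background corrections and scalings gave Ccl9 log2 differences between 0.96 and 1.46. Within experiment 1 they ran from 0.81 to 1.44, and with 3 of them Ccl9 was not 2-fold higher in both experiments.

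Ccl5 (RANTES), which draws T cells, monocytes and eosinophils, was read by probe A_52_P638459 (NM_013653, mm9 chr11:83339296-83339355). In experiment 1 it read 7.70 with siFxr1 and 8.03 with siControl, whereas in experiment 2 it read 13.41 with siFxr1 and 9.61 with siControl. A single array thus lay far above the others, and siFxr1 was 1.26-fold lower than siControl in experiment 1 and 13.96-fold higher in experiment 2. The latter difference was the 53rd highest among the 27823 bright probes. From experiment 1 to experiment 2 the signal was higher by 1.58 in siControl and by 5.71 in siFxr1, which differ by 4.14. With 1 array per condition and experiment, this difference of differences could not be tested. The average log2 difference of Ccl5 was 1.73 (SE 2.33, limma adjusted p = 0.975). Without siFxr1 of experiment 2 it was -1.12 against the mean of both siControl arrays, beside -0.33 within experiment 1.

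The neutrophil attractants Cxcl1 and Cxcl5, both ligands of CXCR2, followed the experiment more than the condition. Cxcl1 (probe A_51_P363187, NM_008176, mm9 chr5:91321845-91321904) read 11.45 with siFxr1 against 11.61 with siControl in experiment 1, and 13.15 against 13.04 in experiment 2. Its signal was higher in experiment 2 by 1.44 in siControl and by 1.70 in siFxr1, while siFxr1 differed from siControl by -0.16 and 0.11 within the experiments. The average log2 difference between conditions was -0.03 (SE 0.89, limma adjusted p = 0.999). Cxcl5 (probe A_55_P1990032, NM_009141, mm9 chr5:91190490-91190549) read 7.09 with siFxr1 against 7.72 with siControl in experiment 1, and 8.96 against 8.70 in experiment 2. Here too both conditions were higher in experiment 2, by 0.98 in siControl and 1.87 in siFxr1. The log2 difference between conditions was -0.63 in experiment 1 and 0.26 in experiment 2, and -0.19 on average (SE 0.84, limma adjusted p = 0.994).

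Cxcl10 (IP-10), an interferon-induced ligand of CXCR3 that draws activated T cells, had the greatest difference within an experiment of the 11 probes. Probe A_55_P2016462 (NM_021274, mm9 chr5:92775781-92775840) read 6.79 with siFxr1 and 7.02 with siControl in experiment 1, whereas experiment 2 gave 11.44 with siFxr1 and 6.13 with siControl. As for Ccl5, siFxr1 of experiment 2 lay far above the other 3 arrays, which here read between 6.13 and 7.02. Cxcl10 was 1.18-fold lower in siFxr1 in experiment 1 and 39.6-fold higher in experiment 2, where its difference was the 20th highest among the bright probes. Unlike Ccl5, its siControl signal was lower in experiment 2 than in experiment 1, with a difference of -0.89. The siFxr1 mean was 9.11 ± 3.29 (SD, n = 2) and the siControl mean 6.57 ± 0.63 (SD, n = 2), a log2 difference of 2.54 (SE 1.86, limma adjusted p = 0.975). Without siFxr1 of experiment 2 it was 0.21 against the mean of both siControl arrays, beside -0.23 within experiment 1. Other background corrections and scalings gave between 4.00 and 5.31 for experiment 2. The promoter window of Cxcl10 printed above was the only one of the 6 that held both motifs. Whether these motifs bear on its signal was not tested.

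Cxcl12 (SDF-1), the ligand of CXCR4 that guides myogenic and haematopoietic cells, was read by 2 probes for different transcripts. The brighter one (A_51_P172502, NM_001012477, mm9 chr6:117131227-117131286) read 12.65 with siFxr1 against 11.74 with siControl in experiment 1, and 11.67 against 10.92 in experiment 2. Within each experiment siFxr1 was higher, by 1.88-fold and 1.68-fold, but both conditions were lower in experiment 2 and the groups overlapped. The average log2 difference was 0.83 (SE 0.52), with a limma adjusted p of 0.975. With the experiment as a block the SE was 0.20, limma's unadjusted p 0.023 and its adjusted p 0.535. The dimmer probe (A_55_P1966204, NM_021704, mm9 chr6:117125026-117125085) read 10.89 with siFxr1 against 10.67 with siControl in experiment 1, and 9.36 against 8.26 in experiment 2. It was higher in siFxr1 by 1.16-fold and 2.15-fold, and its siControl signal differed by -2.41 from experiment 1 to experiment 2. The probes thus had the same direction in both experiments, and the second differed by 0.66 on average (SE 1.13, limma adjusted p = 0.976). Without siControl of experiment 2 the difference of the second probe was -0.55, with siControl of experiment 1 set against the mean of both siFxr1 arrays.

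Cx3cl1 (fractalkine), which is made as a membrane-bound chemokine on a mucin stalk and is shed by ADAM10 and ADAM17, was read by probe A_51_P196925 (NM_009142, mm9 chr8:97306185-97306244). With siFxr1 it read 12.22 in experiment 1 and 12.42 in experiment 2, and with siControl 11.30 and 10.17. Both siFxr1 arrays lay above both siControl arrays, by 1.89-fold in experiment 1 and 4.75-fold in experiment 2. The siFxr1 arrays lay within 0.20 of each other, while siControl differed by -1.13 from experiment 1 to experiment 2. The siFxr1 mean was 12.32 ± 0.14 (SD, n = 2) and the siControl mean 10.74 ± 0.80 (SD, n = 2). Their log2 difference of 1.58 (SE 0.47) was 2.99-fold, with an unadjusted p of 0.039 and an adjusted p of 0.975 from limma, and an adjusted p of 0.539 with the experiment as a block. It stayed between 1.02 and 2.14 when each array was left out in turn.

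**Figure D3:**
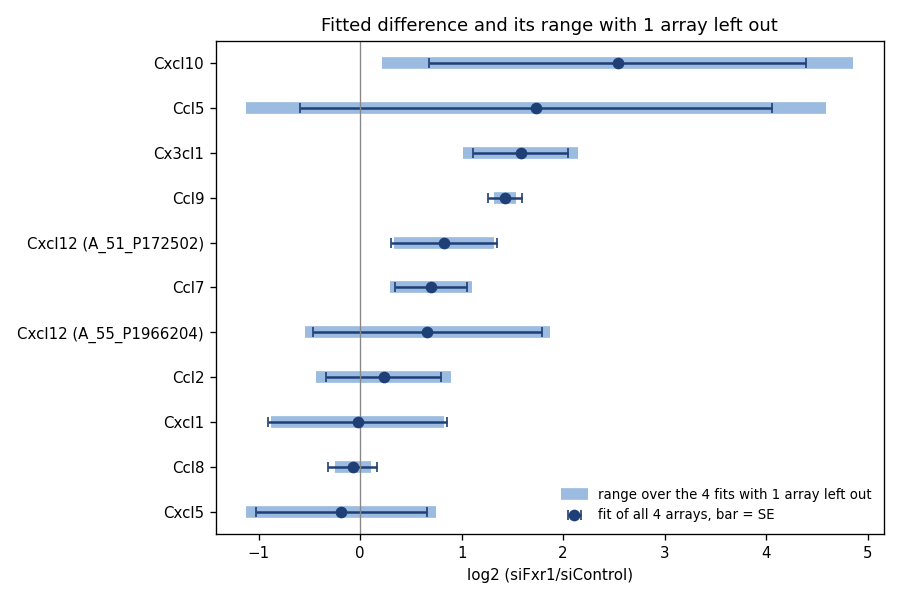
The log2 difference between siFxr1 and siControl (x axis) of the 11 chemokine probes (y axis), as fitted on all 4 arrays (point, with the SE as a bar) and as the range over the 4 fits with 1 array left out (pale band). The band of Ccl9 is narrow (1.32 to 1.54) and that of Cx3cl1 lies above 1, whereas the band of Ccl5 reaches from -1.12 to 4.59.

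Leaving out each array in turn kept the log2 difference above 0 for 5 probes, those of Ccl7, Ccl9, Cxcl10, Cx3cl1 and the brighter of Cxcl12. Among them Ccl9 had the narrowest range, 1.32 to 1.54, and Cxcl10 the widest, 0.21 to 4.86. The difference took both signs for the other 6. These fits did not pair the samples of an experiment, so a difference between experiments enters them. Cxcl10 was lower in siFxr1 within experiment 1 (-0.23), whereas the dimmer Cxcl12 probe was higher within both experiments (0.22 and 1.10).

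The receptors of these chemokines were mostly not above background in the myoblasts. Of 23 chemokine receptor genes on the array, 4 were well above background on all 4 arrays and 16 on none, the latter including Ccr2, Ccr1, Cxcr2, Cxcr3 and Cx3cr1. None of the 23 was called. In siFxr1, 6 were higher and 5 lower in both experiments, and the median log2 difference was 0.22. These figures include the 16 genes that were not above background, whose differences lie at the floor of the array. All 5 lower genes were among those 16. Cxcr4, the receptor of Cxcl12, stood at 10.94 and 10.73 in siFxr1 of experiments 1 and 2 and at 10.87 and 10.97 in siControl, a log2 difference of -0.08 (SE 0.17). Cxcr7, an atypical receptor that takes up Cxcl12, stood at 12.77 and 13.10 in siFxr1 and 12.32 and 12.33 in siControl, so that it was higher in both experiments, by 0.45 and 0.77. Cxcr6 and Ccr8 differed by -0.12 and 0.09 on average, with opposite signs in the 2 experiments. Ccr7 was well above background on both siFxr1 arrays and on 1 siControl array. It was higher in siFxr1 by 3.29-fold in experiment 1 and 3.18-fold in experiment 2, though the groups overlapped.

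Of 29 other chemokine ligands, 7 were well above background on all 4 arrays and 15 on none. None was called. In siFxr1, 9 were higher and 7 lower in both experiments, and the median log2 difference was 0.16. These figures include the 15 ligands that were not above background, whose differences lie at the floor of the array. Among the 7 lower ligands only Pf4 was well above background on any array. At its brighter probe Ccl25, a thymic and gut chemokine, was higher in both experiments, by 0.76 and 0.72. A dimmer Ccl25 probe (A_55_P2027852), well above background on 3 arrays, differed by 0.21 and -0.37. Ccl11 (eotaxin), which lies beside Ccl7, was higher by 1.46 and 0.17. Pf4 (platelet factor 4) differed by -0.73 and -1.27, and Ppbp by -0.06 and 0.63. At the brightest probe of each gene, at least a 2-fold higher signal in both experiments was read for 4 ligands, Ccl3, Ccl12, Cxcl13 and Cxcl16. Among the bright probes 1.75% were so. Only Cxcl13 was well above background on both siFxr1 arrays. Ccl3, Ccl12 and Cxcl16 were well above background on 1 array each and on 0 siControl arrays. With siControl raised to the lowest signal marked well above background, their average folds were 1.15, 0.90 and 0.87. A dimmer probe of Cxcl9 (A_51_P461665), well above background on 1 array, was also at least 2-fold higher in both, and its brightest probe was not. Ccl4, well above background on 1 array, read 2.73 and 7.18 in siFxr1 of experiments 1 and 2 and 2.88 and 2.90 in siControl. Ccl3 read 4.03 and 6.25 in siFxr1 of experiments 1 and 2 and 2.81 and 2.82 in siControl. For Ccl4 and Ccl3 too, siFxr1 of experiment 2 thus stood apart, and the cause was not tested. Cxcl13, a B cell attractant that the study lists among changed transcripts chosen on these same arrays, stood at 9.48 and 7.72 in siFxr1 and at 7.67 and 3.93 in siControl, the last of which was not well above background. With 1 of the 2 siControl arrays above background, its fitted log2 difference was 2.80 (SE 1.63, limma adjusted p = 0.975).

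Proteins that shed or hold chemokines were well above background on all 4 arrays for 6 of 7 genes, of which none was called, with a median log2 difference of 0.09. Sdc1, a syndecan that carries heparan sulfate, was higher in siFxr1 by 1.33 in experiment 1 and 1.30 in experiment 2. A second syndecan, Sdc4, was higher by 0.75 and 1.83, while Sdc3 differed by 0.00 and -0.79. Adam17, a sheddase of Cx3cl1, differed by -1.33 and -1.27, lower in siFxr1 both times, and the other sheddase, Adam10, was higher by 0.32 and 0.26.

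Among 16 genes that induce or restrain chemokine transcription, 11 were well above background on all 4 arrays. None was called, 5 were higher and 7 lower in siFxr1 in both experiments, and the median log2 difference was -0.19. Il1r1, the receptor of interleukin-1, stood at 11.92 and 12.94 in siFxr1 of experiments 1 and 2 and at 11.34 and 11.47 in siControl, and was thus higher in both experiments, by 0.58 and 1.47. Tnfaip3, a feedback inhibitor of NF-kB, was higher by 0.16 and 0.87. Tlr2 differed by -0.92 and -0.05, and Irf3, a factor that turns on interferon genes, by -0.45 and -0.50. Il1b was well above background on both siFxr1 arrays and on 1 siControl array. It was higher in siFxr1 by 2.21-fold in experiment 1 and 3.41-fold in experiment 2, though the groups overlapped.

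**Figure D4:**
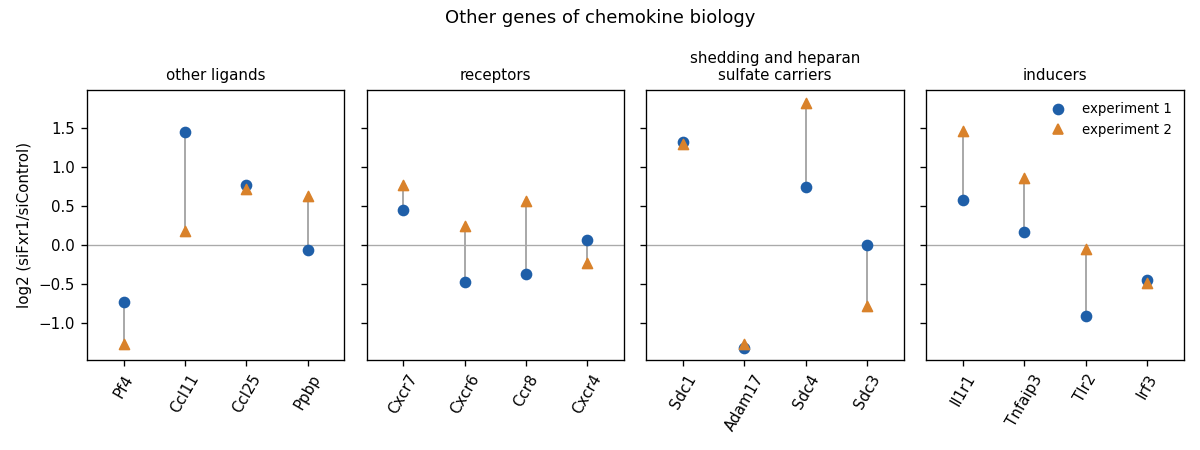
The log2 difference between siFxr1 and siControl (y axis) within experiment 1 (circles) and experiment 2 (triangles) for up to 4 genes each of the other ligands, receptors, shedding and heparan sulfate genes and inducers (x axis), chosen by the size of the average difference among genes well above background on all 4 arrays. Sdc1 and Adam17 have almost the same difference in both experiments (1.33 and 1.30, -1.33 and -1.27), whereas Cxcr6, Ccr8 and Ppbp take both signs.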

How the data were processed

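Total RNA of C2C12 myoblasts was labelled with Cy3 and hybridised on 4 arrays, 2 per condition. The authors deposited spot intensities from Agilent Feature Extraction 10.7.3.1, background-corrected and detrended within each array, and a table of intensities that they had quantile-normalized between arrays. Here log2 of the processed intensity was quantile-normalized over 59305 spots that were not controls, outlier spots (145 to 177 per array) were set to missing, and replicate spots were averaged per probe. The model, with the condition alone, was fitted across all 55681 probes with limma 3.58.1 in R 4.3.3 (lmFit, eBayes), two-sided, with Benjamini-Hochberg adjustment, following the tool and B threshold of the study's methods. Detection needed the mark of the scanner software on a share of 0.5 or more of a probe's spots. The precision is limited by the number of arrays.

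Groups and experiments came from the labels, which give both samples of an experiment the same number, and the files place them on 1 slide, so the experiment pairs the samples. Over the bright probes the same-experiment arrays correlated at 0.982 and 0.977, the same-condition arrays at 0.959 and 0.955, and the deviations from the condition means of same-numbered samples at 0.717. No 2 arrays shared the processed signal of a spot (0 spots), and 0 columns of values were left without a sample.

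The chemokines and the gene lists were chosen with earlier results of these data known. All probes of the 10 chemokines are given. From each list up to 4 genes are named by the size of the average difference at the brightest probe. These were taken among genes well above background on all 4 arrays. Also named are Fxr1, Cxcl13 and genes given as bearing on a chemokine. Ccl3, Ccl4, Ccl12, Ccl27a, Cxcl9, Cxcl16, Ccr7 and Il1b were named after their values were seen. The fits were tested on simulated data. Alternatives were 75th percentile scaling, normexp (offset 50) or no background correction, the table of the authors, removal of dim probes, a block for the experiment, 4 ratios as observations, a variance trend, and each array left out. Probes are placed on mm9 by the array's annotation, and promoter windows are of build GRCm38.p6. The study's RT-PCR, protein and FACS data were not used here.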

Additional observations from a re-analysis of the deposited data

How the results depend on the processing

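The count of called probes was 0 in the fit given, and it was 0 to 0 with 1 array left out, over all probes as over the chemokine probes. With the experiment (slide) as a replicate block it was also 0 over all probes, and 230 when the block was joined with a filter to probes at or above the median signal, of which 0 were chemokine probes. The 4 ratios as observations called 1107 probes, 1 of them among the 11 followed chemokine probes (Ccl9). The block changed no other call. The count of chemokine probes at least 2-fold higher in both experiments was 1 and became 0 with the authors' table, without background correction and with normexp, each chosen after the data were seen, where Ccl9 in experiment 1 was as low as 0.81. Without siFxr1 of experiment 2, also chosen after the data were seen, the count of probes whose groups do not overlap went from 3 to 5 with siFxr1 higher and from 0 to 5 with siFxr1 lower. Among single probes, 142 values kept their direction and side of the threshold, 11 changed direction and 1 was called (Ccl9 with the 4 ratios). Ccl8 turned from -0.07 to 0.011 with the authors' table. With 1 array left out, the log2 differences that took both signs ran from -0.44 to 0.90 for Ccl2, from -1.12 to 4.59 for Ccl5, from -0.25 to 0.11 for Ccl8, from -0.88 to 0.83 for Cxcl1, from -1.12 to 0.75 for Cxcl5 and from -0.55 to 1.87 for Cxcl12 (A_55_P1966204). An arm left with 1 array was assumed to vary like the other. The cause of these differences was not tested. All chemokine probes lay well above background on all 4 arrays, yet other background corrections and scalings brought the log2 difference of Cxcl10 in experiment 2 from 5.31 to as low as 4.00.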
